A study of Mus musculus with 35 samples.

Results

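The erythroid regulators described here are 9 genes chosen by name as known regulators of red cell development, of 11982 gene names in the deposited RNA-seq table: the transcription factor and cofactor genes Klf1, Gata1, Zfpm1, Tal1, Ldb1, Gfi1b, Nfe2 and Bcl11a, and the erythropoietin receptor gene Epor. All 9 were listed, and all 9 passed the filter on low values among 11863 genes tested. RNA of hematopoietic stem and progenitor cells (HSPCs) from mouse bone marrow was compared between wild type (WT) mice and mice lacking JMJD1B, a histone demethylase encoded by Kdm3b, with 2 libraries per genotype. Both groups had the strain label 129P2xC57BL/6J, received no treatment other than the genotype itself, and gave polyA RNA. JMJD1B-/- mice carried a germline gene trap made in embryonic stem cells. Adult mice of both sexes served in the study, with neither age nor sex given for a single library. How HSPCs were sorted for RNA is not given in the sources used here. The series design calls the libraries of a genotype biological replicates and does not say whether each came from 1 mouse or from pooled mice.

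Red cells develop from progenitors shared with megakaryocytes, and the choice and the maturation that follows run through a small set of DNA-binding proteins. GATA1, with its cofactor FOG1 (from Zfpm1), and TAL1, bridged to GATA1 by LMO2 and LDB1, bind GATA and E-box sequences near erythroid genes, while KLF1 binds CACCC sequences in globin and red cell membrane genes. GFI1B is a repressor needed in erythroid and megakaryocytic cells, NFE2 pairs with small MAF proteins and acts in globin expression and platelet formation, and BCL11A silences embryonic and fetal globin genes. The erythropoietin receptor carries the survival signal of late erythroid progenitors through JAK2 and STAT5.

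Of the 9 regulators, Klf1, Gfi1b and Gata1 were higher in JMJD1B-/- than in WT HSPCs at an unadjusted p under 0.05, by 2.34-, 1.82- and 1.57-fold in mean RPKM, a read count scaled to transcript length and library size. No regulator was lower at that threshold. None of the 9 passed an adjusted p of 0.05 in limma, where 5 of all genes did (0.0421%). Among all genes tested, 3.81% were called higher and 6.33% lower at the unadjusted threshold. For 6 of the 9, Klf1, Gata1, Tal1, Gfi1b, Epor and Bcl11a, each JMJD1B-/- value exceeded each WT value, as it did for 20.1% of all genes tested. For none of the 9 was each JMJD1B-/- value the lower one, as it was for 22.7% of all genes tested. The regulators' median log2 fold change was 0.34, beside -0.025 over all genes tested, and 8 of the 9 were highest in JMJD1B-/- replicate 2. Without that library both medians were lower, at 0.16 and -0.099, and without JMJD1B-/- replicate 1 both were higher, at 0.52 and 0.087. Without WT replicate 1 the log2 fold changes of Klf1, Gfi1b and Gata1 were 1.01, 0.87 and 0.56. Without WT replicate 2 they were 1.43, 0.80 and 0.70. Leaving out JMJD1B-/- replicate 2 gave 3 calls, with Klf1 and Gfi1b higher and Nfe2 lower, in a fit that called 732 genes higher and 1777 lower of 11896 tested. Leaving out JMJD1B-/- replicate 1 gave 7 calls, all of them higher and none for Zfpm1 or Nfe2, in a fit that called 1367 genes higher and 1349 lower of 11762 tested. With 2 libraries against 2, an exact two-sided permutation test of a single gene cannot go below p = 0.333, so the p-values quoted come from limma, which shares the spread across genes.

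The 4 libraries did not stand alike in ways that touch these values. JMJD1B-/- replicate 1 was the shallowest, with 6105124 reads against 17492641 to 24574078 in the other 3, as recovered from the table. Kdm3b had 31.0 and 24.3 RPKM in WT and 4.00 and 4.63 RPKM in JMJD1B-/- libraries, in the direction of the labels. Xist, transcribed from the inactive X chromosome of females, reached 332 RPKM in WT replicate 2, while the other 3 libraries had at most 0.051 RPKM, so the genotypes were not matched for sex. Prg2, an eosinophil granule gene, reached 5377 and 4328 RPKM in replicate 1 of WT and of JMJD1B-/-, and 988 and 1077 RPKM in the replicates numbered 2. The regulators' fold changes are therefore also plotted without single libraries, and given where a call or direction moved. A library left alone in its genotype was then assumed to vary like the other genotype's pair.

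In WT HSPCs the regulators spanned a range of levels per transcript length from Zfpm1, at 112.5 ± 8.89 RPKM (SD, n = 2), to Epor, at 13.3 ± 2.20 RPKM (SD, n = 2). The order of WT means ran Zfpm1, Ldb1, Nfe2, Tal1, Gata1, Klf1, Bcl11a, Gfi1b, Epor. Neighbours in that order had WT libraries that did not overlap, except Nfe2 with Tal1 and Klf1 with Bcl11a. In JMJD1B-/- HSPCs Zfpm1 and Ldb1 again led and Epor again came last. Klf1 ranked 6 by its WT mean and 3 by its JMJD1B-/- mean, and Nfe2 ranked 3 and 7. In the JMJD1B-/- order the ranges over 2 libraries of every neighbouring pair from Ldb1 to Bcl11a overlapped. Within a library the order was closer, since Ldb1, Klf1 and Gfi1b ranked 2, 3 and 6 in both JMJD1B-/- libraries, while Gata1 with Tal1 and Nfe2 with Bcl11a changed places. Against the genes listed in the table, which leaves out genes under 1 RPKM in every library, 79.9% had a lower WT mean than Klf1 and 93.5% had a lower JMJD1B-/- mean. The same shares for Epor were 58.4% and 74.0%.

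**Figure D1:**
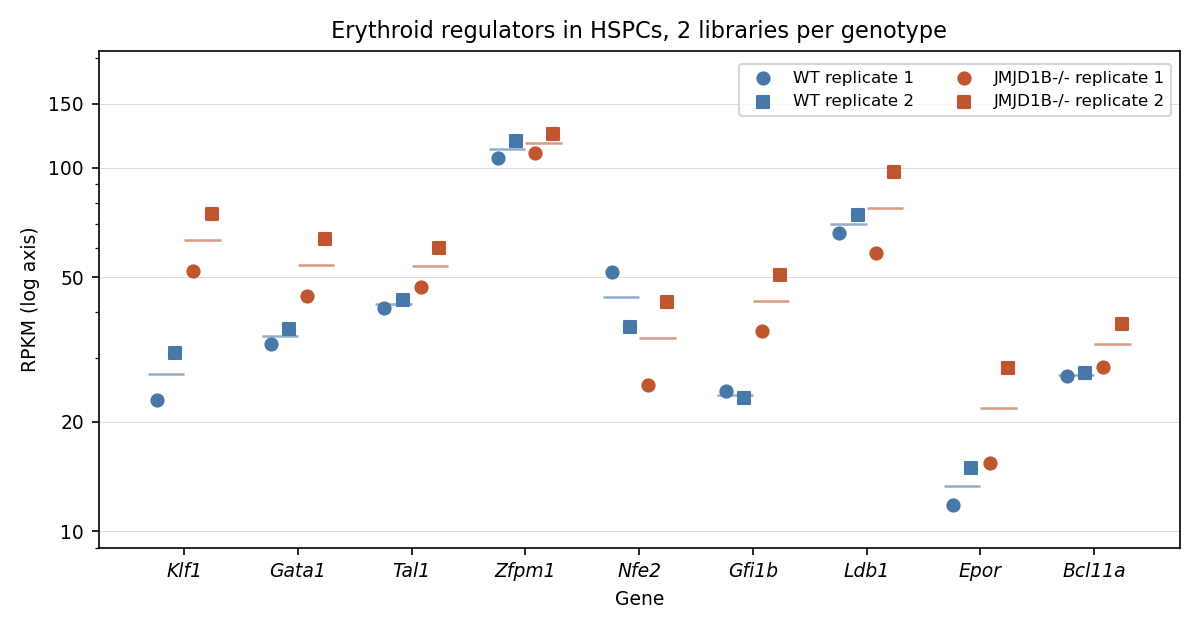
RPKM (log axis) of the 9 erythroid regulators in each HSPC library, with blue marks for WT and orange marks for JMJD1B-/-, circles for replicate 1, squares for replicate 2 and a line at each genotype's mean. Both orange marks lie above both blue marks for Klf1, Gata1, Tal1, Gfi1b, Epor and Bcl11a, while those of Zfpm1, Nfe2 and Ldb1 overlap.

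Klf1 encodes an erythroid zinc finger activator of beta-globin and of membrane, heme and blood group genes. In WT HSPCs Klf1 had 23.0 and 31.0 RPKM, and in JMJD1B-/- HSPCs 52.0 and 74.6 RPKM. Each JMJD1B-/- library exceeded both WT libraries by more than the WT libraries differed from each other, although replicate 2 was the higher within each genotype. The log2 fold change was 1.22 ± 0.24 (SE), with an unadjusted p of 0.00136 and an adjusted p of 0.197 in limma. It was the largest change among the 9, and without single libraries it ran from 0.96 to 1.48 with an unadjusted p of at most 0.0169. The gene-by-gene test did not call it (unadjusted p = 0.0681). The values rest on 619 and 1170 reads in WT and 488 and 2409 reads in JMJD1B-/- libraries, which gives a counting error of 4.52% in the shallowest library.

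The promoter sequences are shown because GATA1 and KLF1 are known to act on erythroid genes through short motifs, and the regulators called higher can be compared in them. RefSeq windows on assembly GRCm38.p6 were at hand for 8 of the 9 regulators, in 11 windows, and none was used for Nfe2. The 250 bases before the annotated start are printed for Klf1 (chr8:84901732-84901981), Gfi1b (chr2:28621983-28622232), Epor (chr9:21963577-21963826) and Gata1 (chrX:7967911-7968160). Klf1 lies on the plus strand and the other 3 on the minus strand, and all are written in the direction of transcription. Capitals mark a GATA motif, searched on both strands as AGATAA and TGATAA, and with G in place of the last A, as AGATAG and TGATAG.
Klf1: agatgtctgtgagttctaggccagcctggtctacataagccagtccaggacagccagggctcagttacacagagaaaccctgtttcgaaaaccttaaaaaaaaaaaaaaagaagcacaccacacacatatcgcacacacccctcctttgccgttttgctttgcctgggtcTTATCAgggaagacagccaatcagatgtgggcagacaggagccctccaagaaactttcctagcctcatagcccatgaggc
Gfi1b: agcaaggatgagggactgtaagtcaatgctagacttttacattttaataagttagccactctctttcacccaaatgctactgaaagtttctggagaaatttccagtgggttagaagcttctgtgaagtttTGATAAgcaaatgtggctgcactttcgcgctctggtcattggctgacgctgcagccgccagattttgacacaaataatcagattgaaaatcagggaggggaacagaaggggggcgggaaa
Epor: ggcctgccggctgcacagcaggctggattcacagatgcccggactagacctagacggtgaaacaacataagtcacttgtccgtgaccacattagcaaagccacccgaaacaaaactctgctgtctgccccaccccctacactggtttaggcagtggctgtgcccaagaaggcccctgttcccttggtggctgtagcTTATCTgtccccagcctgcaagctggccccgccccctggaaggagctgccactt
Gata1: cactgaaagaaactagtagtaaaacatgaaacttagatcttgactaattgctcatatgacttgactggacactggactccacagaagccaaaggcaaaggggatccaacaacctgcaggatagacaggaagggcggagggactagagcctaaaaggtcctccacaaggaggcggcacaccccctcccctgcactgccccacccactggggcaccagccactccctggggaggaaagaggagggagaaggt

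The Klf1 window held 1 GATA motif, 80 to 75 bases before the start on the opposite strand, and Epor held 1 at 54 to 49 bases, also on the opposite strand. Gfi1b held 1 on the transcribed sense at 120 to 115 bases. None of these 4 letter strings occurs in the 250 bases printed for Gata1. Over all members, 5 of the 11 windows held a GATA motif, from Klf1, Gfi1b, Epor, Tal1 and Ldb1, against 26.5% of 32851 mouse windows of the same length. CACCC, searched on both strands, was found in 10 of the 11 windows and in each of the 8 genes, against 52.0% of all windows. The E-box CANNTG was in 6 of the 11 against 66.2%, and in Gfi1b 1 E-box shared a base with the CACCC match. The NF-E2 motif TGAGTCA was in 0 of the 11 against 4.46%. These matches describe the letters, and binding was not measured here. The search does not set Klf1, Gfi1b and Gata1 apart from the other members, since Gata1 had no GATA match, while Epor, Tal1 and Ldb1 did.

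Gata1 encodes the X-linked zinc finger factor required for red cell and megakaryocyte maturation. Gata1 had 32.8 and 35.9 RPKM in WT and 44.5 and 63.6 RPKM in JMJD1B-/- libraries. The genotypes did not overlap, and the JMJD1B-/- libraries differed from each other by 1.43-fold. The log2 fold change was 0.63 ± 0.22 (SE), with an unadjusted p of 0.0225 and an adjusted p of 0.425 in limma. Gata1 lies on the X chromosome, and the WT library with Xist RNA had the higher Gata1 value of its pair, 1.10-fold above the other. Without that library the log2 fold change was 0.70, with an unadjusted p of 0.0698. The unadjusted call held without JMJD1B-/- replicate 1 alone (log2 fold change 0.89), and was lost without any of the other 3 libraries, where the lowest log2 fold change was 0.37. It was also lost in limma without a trend (unadjusted p = 0.0704) and in the gene-by-gene test (unadjusted p = 0.141).

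Zfpm1 encodes FOG1, the cofactor through which GATA1 acts at most erythroid and megakaryocytic genes. It had 106.2 and 119 RPKM in WT and 110.2 and 124 RPKM in JMJD1B-/- libraries. The 2 genotypes interleaved, and the log2 fold change of 0.06 ± 0.18 (SE) had an adjusted p of 0.934 in limma. Its sign was not fixed, since it turned under quantile normalization and without either of 2 single libraries. Within a library, Zfpm1 stood 3.24 and 3.31 times as high as Gata1 in WT and 2.48 and 1.95 times as high in JMJD1B-/- HSPCs.

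Tal1 encodes the basic helix-loop-helix factor that starts blood formation and later works beside GATA1. Tal1 had 41.0 and 43.2 RPKM in WT and 47.0 and 60.2 RPKM in JMJD1B-/- libraries. The genotypes did not overlap, yet JMJD1B-/- replicate 1 was nearer to the WT libraries than to replicate 2, and the log2 fold change of 0.34 ± 0.19 (SE) had an adjusted p of 0.595 in limma. Of the fits that leave out 1 library, Tal1 was called higher only in that without JMJD1B-/- replicate 1 (log2 fold change 0.52, unadjusted p = 0.0194, limma), and stood at 0.16 when replicate 2 was left out. Ldb1, whose product bridges TAL1 complexes and brings enhancers to promoters, had 66.2 and 74.0 RPKM in WT and 58.2 and 97.1 RPKM in JMJD1B-/- libraries. The JMJD1B-/- libraries of Ldb1 lay on both sides of the WT pair, so its log2 fold change was 0.47 without replicate 1, -0.27 without replicate 2 and 0.10 ± 0.26 (SE) with both.

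Gfi1b encodes a zinc finger repressor that recruits LSD1 and CoREST in erythroid and megakaryocytic cells. Gfi1b had 24.3 and 23.2 RPKM in WT and 35.5 and 50.7 RPKM in JMJD1B-/- libraries. The WT libraries were close to each other and both JMJD1B-/- libraries lay above them. The log2 fold change was 0.84 ± 0.22 (SE), with an unadjusted p of 0.00625 and an adjusted p of 0.309 in limma. Without single libraries it ran from 0.58 to 1.09, with an unadjusted p of at most 0.0464, and the gene-by-gene test did not call it (unadjusted p = 0.0835). Gfi1, its relative in myeloid and lymphoid cells, had 3.48 and 3.74 RPKM in WT and 2.35 and 0.732 RPKM in JMJD1B-/- libraries, a log2 fold change of -1.37 ± 0.58 (SE) with an adjusted p of 0.486 in limma, and of -0.59 when JMJD1B-/- replicate 2 was left out.

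Nfe2 encodes the larger subunit of the NF-E2 factor of red cells and platelets. It was the only member with a negative log2 fold change, -0.41 ± 0.29 (SE), with an adjusted p of 0.669 in limma. Nfe2 had 51.6 and 36.6 RPKM in WT and 25.2 and 42.6 RPKM in JMJD1B-/- libraries. Here JMJD1B-/- replicate 2 lay between the WT libraries and replicate 1 below both, and without replicate 1 the log2 fold change was -0.026. Without replicate 2 it was -0.78, with an unadjusted p of 0.00855 in limma, a call that no other left-out library gave. In JMJD1B-/- replicate 1 the level rests on 257 reads, with a counting error of 6.24%. Bcl11a, the globin silencer that B cells and progenitors also need, had 26.7 and 27.2 RPKM in WT and 28.3 and 37.2 RPKM in JMJD1B-/- libraries. The lower JMJD1B-/- library was close above the WT pair, and the log2 fold change of 0.27 ± 0.20 (SE) had an adjusted p of 0.687 in limma. Bcl11a reached 0.46 (unadjusted p = 0.0386, limma) when JMJD1B-/- replicate 1 was left out and 0.070 when replicate 2 was.

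Epor encodes the receptor for erythropoietin. Epor had 11.8 and 14.9 RPKM in WT and 15.4 and 28.2 RPKM in JMJD1B-/- libraries. The lower JMJD1B-/- library exceeded the higher WT library by less than the WT libraries differed from each other, whereas replicate 2 stood 1.83-fold above replicate 1. The log2 fold change was 0.65 ± 0.31 (SE), the least certain of the 9 by its error, with an unadjusted p of 0.0746 and an adjusted p of 0.537 in limma. With a term for replicate number in the fit (the replicate block), Epor was called at the unadjusted threshold (unadjusted p = 0.0121, adjusted p = 0.202, limma). Leaving out JMJD1B-/- replicate 2 brought its log2 fold change to 0.21. Leaving out JMJD1B-/- replicate 1 brought it to 1.08, with an unadjusted p of 0.000182. Epor rested on 379 and 672 reads in WT and 172 and 1088 reads in JMJD1B-/- libraries, with a counting error of 7.62% in the shallowest.

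**Figure D2:**
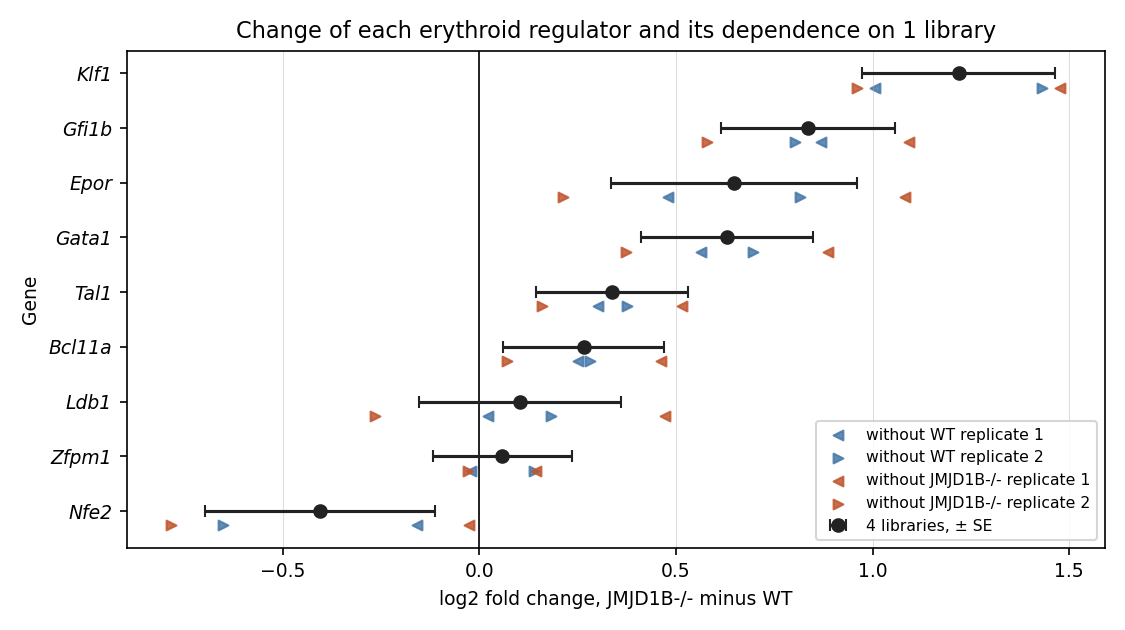
log2 fold change (JMJD1B-/- minus WT) of each regulator over all 4 libraries, with the limma standard error as a bar, and the same value after leaving out each library (triangles below). Klf1, Gfi1b, Epor, Gata1, Tal1 and Bcl11a stay above 0 in each case, and the triangles of Ldb1 and Zfpm1 lie on both sides of 0.

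Of 15 partners tested from the GATA1 and TAL1 complexes, 1 was called higher at the unadjusted threshold, beside 3.81% of all genes tested, and 0 lower in limma. None passed the adjusted threshold, and their median log2 fold change was 0.15. The log2 fold change was positive in 13 of the 15, and in 7 each JMJD1B-/- value exceeded each WT value, beside 20.1% of all genes tested. The count called higher was 3 without JMJD1B-/- replicate 1 and 0 without any 1 of the other libraries, and 1 was called lower without JMJD1B-/- replicate 2. Ssbp3, whose product stabilises LDB1, had 14.0 and 15.0 RPKM in WT and 18.1 and 24.8 RPKM in JMJD1B-/- libraries, with an unadjusted p of 0.0457. The genotypes did not overlap for Ssbp3, and its pattern over the 4 libraries was the nearest to that of Gata1, with a root mean square difference of 0.05 in centred log2(RPKM + 0.1) among 151 genes searched. The abundant partners differed less: Lmo2, the bridging LIM protein gene, had 127 and 123 RPKM in WT and 118 and 158 RPKM in JMJD1B-/- libraries, and Chd4, a chromatin remodeller of the NuRD complex, had 117 and 119 RPKM in WT and 101 and 122 RPKM in JMJD1B-/- libraries.

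Among 6 partners and relatives of NFE2 that were listed, 1 was called higher and 0 lower at the unadjusted threshold. Over all genes tested, 3.81% were called higher and 6.33% lower. The median log2 fold change of these 6 was -0.08. The count called higher was 2 without JMJD1B-/- replicate 1 and 0 without any 1 of the other libraries. The gene called was Nfe2l2, the regulator of antioxidant genes, with 29.9 and 30.7 RPKM in WT and 37.4 and 47.1 RPKM in JMJD1B-/- libraries (unadjusted p = 0.0441, adjusted p = 0.483, limma). Mafg, a small MAF partner, had 25.1 and 24.4 RPKM in WT and 21.5 and 25.6 RPKM in JMJD1B-/- libraries, and the genotypes overlapped. Of 4 genes tested for globin switching beside Bcl11a, 0 were called at the unadjusted threshold in limma, and 1 more, the embryonic globin gene Hbb-bh1, was listed but was under the filter. Without JMJD1B-/- replicate 1, 2 of the 4 were called higher, and without replicate 2, 1 higher and 1 lower. Myb, a progenitor factor that holds back fetal globin, had 191 and 185 RPKM in WT and 137 and 211 RPKM in JMJD1B-/- libraries.

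Of 17 genes that carry or dampen the Epo signal, 0 were called higher and 2 lower at the unadjusted threshold in limma, beside 3.81% and 6.33% of all genes tested. None passed the adjusted threshold, and their median log2 fold change was -0.26. The count called lower was 0 without either WT library, 1 without JMJD1B-/- replicate 2, under the replicate block or in limma without a trend, and 3, with 1 higher, without JMJD1B-/- replicate 1. Jak2, the kinase bound to the receptor, had 50.9 and 53.4 RPKM in WT and 38.8 and 41.4 RPKM in JMJD1B-/- libraries, with an unadjusted p of 0.0627. Both JMJD1B-/- values of Jak2 were below both WT values. The STAT5 gene of highest level, Stat5a, had 42.3 and 37.2 RPKM in WT and 39.6 and 51.9 RPKM in JMJD1B-/- libraries, and overlapped. The 2 genes called lower were Sh2b3, an adaptor that dampens JAK2, at a log2 fold change of -0.67 ± 0.26 (SE) and Pim1, a STAT5-induced kinase gene, at -0.49 ± 0.20 (SE), with adjusted p-values of 0.472 and 0.483 in limma.

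Most genes that mature red cells use had higher mean values in JMJD1B-/- than in WT HSPCs. The 38 erythroid effector genes tested cover globins, heme enzymes, membrane proteins and carbonic anhydrases. At the unadjusted threshold 28 were called higher and 0 lower in limma, beside 3.81% and 6.33% of all genes tested. None of the 38 passed the adjusted threshold. Their median log2 fold change was 0.78. In 31 of the 38 each JMJD1B-/- value exceeded each WT value, beside 20.1% of all genes tested. The count called higher was 13 without WT replicate 1, 19 in limma without a trend and 4 in the gene-by-gene test. Car2, which encodes a red cell carbonic anhydrase, had 259 and 324 RPKM in WT and 640 and 709 RPKM in JMJD1B-/- libraries, a log2 fold change of 1.22 ± 0.21 (SE). It was the gene whose pattern was nearest to that of Klf1, at a root mean square difference of 0.14, followed by Aqp1 and Cpox at 0.18 and 0.19. Tspan33 was the nearest to Epor, at 0.15, and second nearest to Gata1, at 0.08. With 4 libraries from 2 groups, such likeness mostly ranks genes by the size of one difference.

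Car1 had 223 and 357 RPKM in WT and 707 and 706 RPKM in JMJD1B-/- libraries, Cldn13, a claudin gene of erythroid cells, had 12.3 and 18.4 RPKM in WT and 46.7 and 37.9 RPKM in JMJD1B-/- libraries, and Hemgn, a nuclear factor gene of erythroid progenitors, had 18.9 and 25.1 RPKM in WT and 51.9 and 47.5 RPKM in JMJD1B-/- libraries. Their log2 fold changes were 1.32, 1.48 and 1.18, with adjusted p-values of 0.185, 0.148 and 0.156 in limma, and none of the 3 overlapped between genotypes. The adult globin genes were named after their values were seen. Hba-a1 had 42.6 and 53.2 RPKM in WT and 141 and 371 RPKM in JMJD1B-/- libraries, and Hbb-b1 had 51.6 and 85.2 RPKM in WT and 157 and 437 RPKM in JMJD1B-/- libraries. Hba-a1 and Hba-a2, and likewise Hbb-b1 and Hbb-b2, kept the same ratio to each other in every library, 1.01 and 0.97, and each copy's value is uncertain because near-identical copies can share reads.

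**Figure D3:**
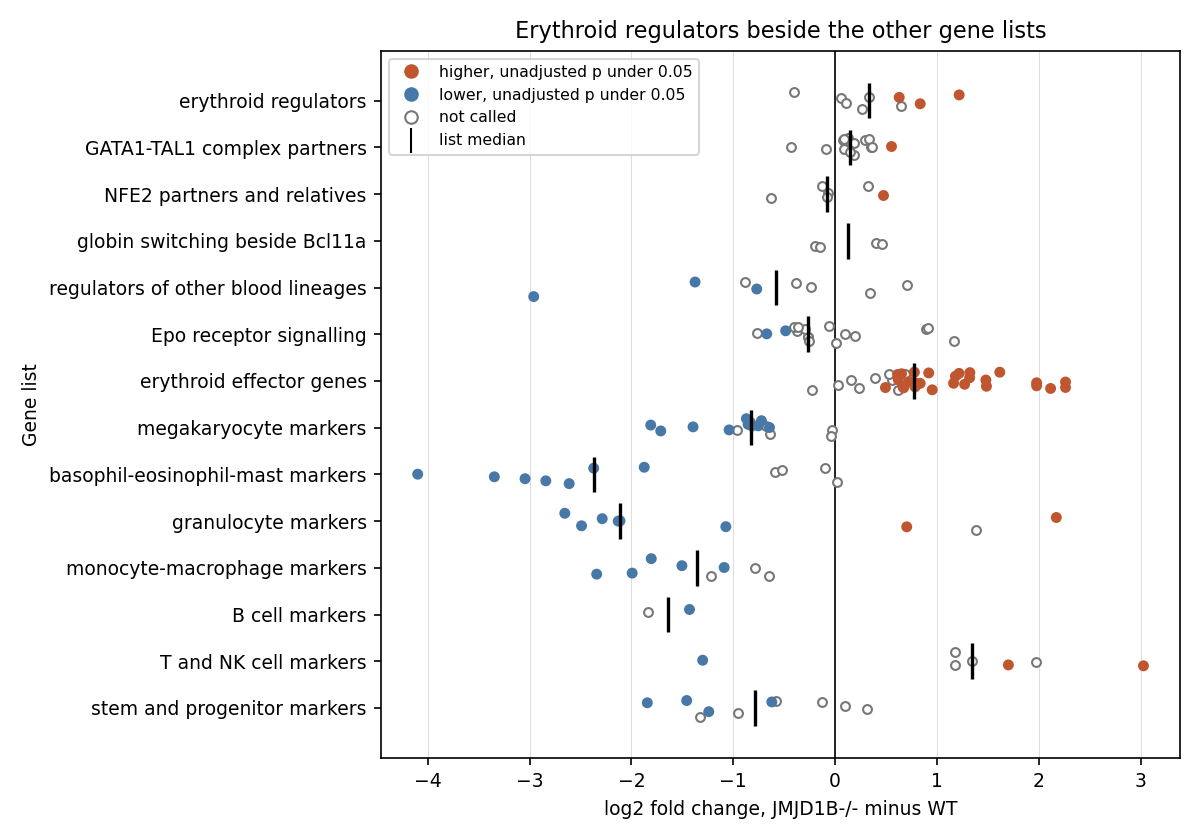
log2 fold change (JMJD1B-/- minus WT) of each gene tested, by gene list, with filled marks for genes at an unadjusted p under 0.05 in limma (orange higher, blue lower), open marks for the others and a black bar at each list's median. The regulators' median of 0.34 lies between the median of 0.15 for their complex partners and that of 0.78 for the erythroid effector genes, and most myeloid and megakaryocytic lists lie below 0.

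Factors of other blood lineages were lower where they were called. Of 8 tested, 3 were lower and 0 higher at the unadjusted threshold, beside 6.33% and 3.81% of all genes tested, and in 6 each JMJD1B-/- value was under each WT value, beside 22.7%. Without WT replicate 1, 1 was called lower. Cebpa, the granulocyte-monocyte factor gene, had 13.4 and 12.7 RPKM in WT and 1.05 and 2.36 RPKM in JMJD1B-/- libraries, a log2 fold change of -2.96 ± 0.41 (SE) with an adjusted p of 0.0768 in limma. Gata2, which precedes Gata1 in progenitors and is replaced by it at shared sites as red cells mature, had 73.3 and 52.9 RPKM in WT and 28.4 and 46.9 RPKM in JMJD1B-/- libraries, a log2 fold change of -0.77 ± 0.28 (SE) with an adjusted p of 0.435 in limma. Ikzf1, a lymphoid and progenitor factor gene, had 69.7 and 82.5 RPKM in WT and 95.7 and 96.5 RPKM in JMJD1B-/- libraries.

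Ratios between genes of 1 library do not depend on how libraries are scaled, and 8 such ratios, chosen after their values were seen, are given as a description without a test. Gata1 stood at 0.45 and 0.68 times Gata2 in WT and at 1.57 and 1.36 times Gata2 in JMJD1B-/- HSPCs, so Gata2 was the higher of the pair in both WT libraries and Gata1 in both JMJD1B-/- libraries. Klf1 stood at 0.49 and 0.77 times Fli1, a megakaryocyte factor gene that opposes it, in WT and at 1.36 and 2.11 times in JMJD1B-/- HSPCs. Gata1 stood at 2.69 and 2.78 times Sfpi1, the gene of the myeloid factor PU.1, in WT and at 4.28 and 14.5 times in JMJD1B-/- HSPCs, where the replicates differed widely. Both the Gata1 to Gata2 and the Klf1 to Fli1 ratio passed from under 1 to over 1.

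Among the regulators themselves, Klf1 stood at 0.70 and 0.86 times Gata1 in WT and at 1.17 and 1.17 times in JMJD1B-/- HSPCs. The JMJD1B-/- replicates thus agreed in this ratio, although Klf1 and Gata1 were each 1.43-fold higher in replicate 2. Nfe2 stood at 2.24 and 1.18 times Klf1 in WT and at 0.48 and 0.57 times in JMJD1B-/- HSPCs. Epor stood at 0.23 and 0.28 times Jak2 in WT and at 0.40 and 0.68 times in JMJD1B-/- HSPCs, and Gfi1b at 6.99 and 6.20 times Gfi1 in WT and at 15.1 and 69.3 times in JMJD1B-/- HSPCs, the last against a Gfi1 level under 1 RPKM.

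**Figure D4:**
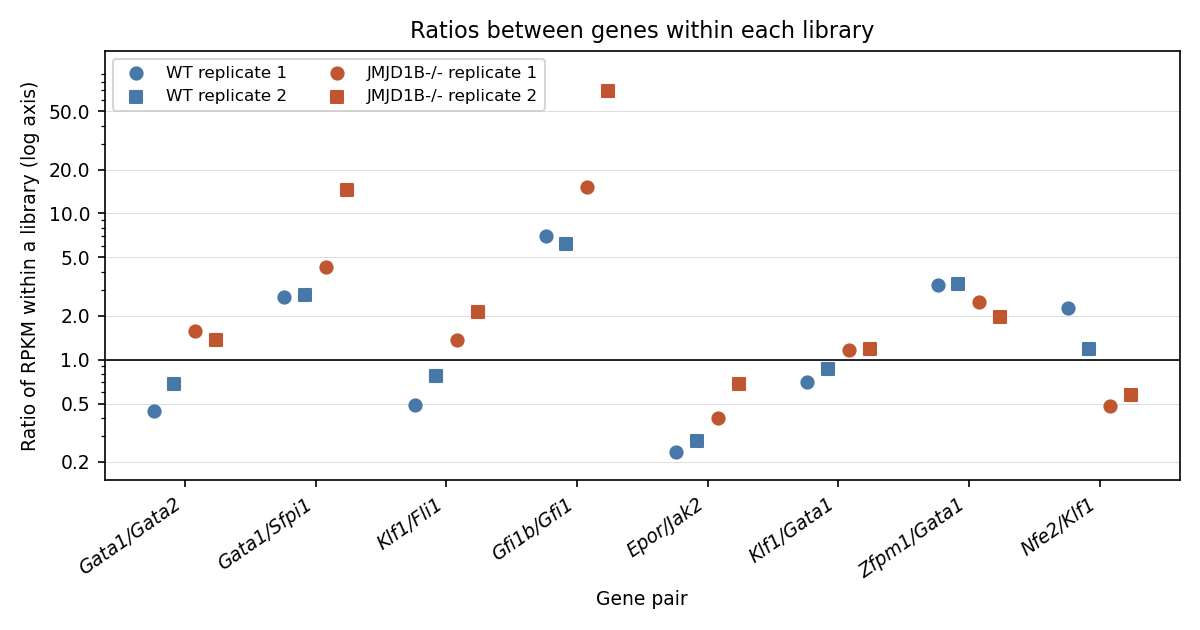
Ratio of RPKM between 2 genes of the same library (log axis, line at 1) for 8 gene pairs, with blue marks for WT, orange marks for JMJD1B-/-, circles for replicate 1 and squares for replicate 2. The orange marks lie above the blue ones for 6 pairs and below them for Zfpm1/Gata1 and Nfe2/Klf1.

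Bulk RNA of HSPCs mixes cell types, and fewer cells of a type cannot be told apart from less RNA per cell. The summed level of several marker lists for other cells did not overlap between the genotypes, whereas that of basophil, eosinophil and mast cell markers and of T and NK cell markers did. The part of these cells in the regulators' values was not tested. All 16 megakaryocyte markers had a negative log2 fold change. Of these, 10 were called lower and 0 higher, beside 6.33% and 3.81% of all genes tested. Their summed level was 915 to 927 RPKM in WT and 413 to 522 RPKM in JMJD1B-/- HSPCs. Without WT replicate 1 or 2, 6 or 5 of the 16 were called lower. Pf4, the platelet factor gene, had 348 and 308 RPKM in WT and 92.8 and 167 RPKM in JMJD1B-/- HSPCs, and Clec1b, a platelet receptor gene, had 38.2 and 51.7 RPKM in WT and 11.8 and 13.5 RPKM in JMJD1B-/- HSPCs. Itga2b and Ppbp were likewise lower in both JMJD1B-/- libraries, by 1.54- and 2.05-fold. No megakaryocyte marker was listed at 0.

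Basophil, eosinophil and mast cell markers were called lower in 7 of 11 cases, beside 6.33% of all genes tested. Their summed level was 1621 to 6077 RPKM in WT and 1161 to 4572 RPKM in JMJD1B-/- HSPCs, a sum led by Prg2. Prss34, a basophil protease gene, had 246 and 258 RPKM in WT and 30.6 and 19.9 RPKM in JMJD1B-/- HSPCs, and it passed the adjusted threshold (adjusted p = 0.00637, limma). Ms4a2 and Cd200r3 were 7.77- and 15.7-fold lower, with log2 fold changes of -3.64 and -4.96 without JMJD1B-/- replicate 1 and of -2.45 and -3.24 without replicate 2. Granulocyte markers were called lower in 6 and higher in 2 of 9 cases, beside 6.33% and 3.81% of all genes tested. Their summed level was 206 to 298 RPKM in WT and 57.5 to 91.1 RPKM in JMJD1B-/- HSPCs. Mpo, Ctsg, Prtn3 and Ms4a3, early granule and progenitor genes, were 6.27-, 3.86-, 4.38- and 5.15-fold lower, and Prtn3 had an adjusted p of 0.04998 in limma. Ctsg and Ms4a3 had log2 fold changes of -2.89 and -3.17 without JMJD1B-/- replicate 1 and of -1.36 and -1.81 without replicate 2. The 2 called higher, named after their values were seen, were genes of calcium-binding proteins of neutrophils. S100a9 had 2.79 and 1.41 RPKM in WT and 8.01 and 10.8 RPKM in JMJD1B-/- HSPCs (log2 fold change 2.17, unadjusted p = 0.000837, limma), and S100a8 had 7.24 and 4.74 RPKM in WT and 8.71 and 10.6 RPKM in JMJD1B-/- HSPCs (log2 fold change 0.70, unadjusted p = 0.0484, limma). The count called higher was 1 without WT replicate 2. Camp was listed at 0 in WT replicate 2 and in JMJD1B-/- replicate 1.

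Monocyte and macrophage markers were called lower in 5 of 8 cases in limma, beside 6.33% of all genes tested, and in 0 by the gene-by-gene test. Their summed level was 159 to 172 RPKM in WT and 32.8 to 115 RPKM in JMJD1B-/- HSPCs. F13a1, Ly86, Csf1r and Irf8 were 4.71-, 3.79-, 3.26- and 2.37-fold lower, and Ccr2 overlapped between the genotypes. These sizes moved with the library left out: the log2 fold change of Irf8 was -2.42 without JMJD1B-/- replicate 1 and -0.59 without replicate 2, and the same pairs were -2.98 and -1.70 for F13a1, -2.63 and -1.35 for Ly86 and -2.46 and -1.15 for Csf1r. Of 9 B cell markers 3 were listed, with a summed level of 3.77 to 4.36 RPKM in WT and 0.845 to 2.76 RPKM in JMJD1B-/- HSPCs. Cd79b and Cd22 were 2.84- and 4.29-fold lower, and Vpreb3 was listed at 0 outside JMJD1B-/- replicate 1. The JMJD1B-/- values rest on 9 and 16 reads for Cd79b and on 12 and 20 reads for Cd22. At the unadjusted threshold 1 was called lower, and 0 without either WT library. T and NK cell markers were called higher in 2 and lower in 1 of 7 cases, beside 3.81% and 6.33% of all genes tested. Their summed level was 22.4 to 30.9 RPKM in WT and reached 82.9 RPKM in replicate 1 of JMJD1B-/- but 18.7 RPKM in the other. Without JMJD1B-/- replicate 1, 0 were called higher, without JMJD1B-/- replicate 2, 6 were, and without either WT library, 1 was. Cd3g had 0.444 and 0.474 RPKM in WT and 11.7 and 1.66 RPKM in JMJD1B-/- HSPCs, Cd3e was 4.07-fold higher, Nkg7 was 2.44-fold lower and Il7r overlapped. The Cd3g values rest on 4 and 6 reads in WT and on 37 and 18 reads in JMJD1B-/- libraries. The log2 fold changes of Cd3g and Cd3e were 1.66 and 0.83 without JMJD1B-/- replicate 1 and 4.40 and 2.57 without replicate 2.

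The labelled cell type was set beside 10 stem and progenitor markers, none of which was listed at 0, although some were low. They were called lower in 4 cases (1 without WT replicate 1, 2 without WT replicate 2) and higher in 0 (1 without JMJD1B-/- replicate 1), and their summed level was 207 to 214 RPKM in WT and 137 to 166 RPKM in JMJD1B-/- HSPCs. Over all genes tested, 6.33% were called lower and 3.81% higher. Kit, the stem cell factor receptor gene, had 66.9 and 62.5 RPKM in WT and 51.6 and 92.7 RPKM in JMJD1B-/- HSPCs, and overlapped. Ly6a had 1.92 and 2.96 RPKM in WT and 2.17 and 0.629 RPKM in JMJD1B-/- HSPCs. Procr had 1.47 and 0.615 RPKM in WT and 0.543 and 0.18 RPKM in JMJD1B-/- HSPCs. The JMJD1B-/- values rest on 11 reads each for Ly6a and on 5 and 6 reads for Procr. Cd34, Flt3, Mecom and Meis1 were 2.65-, 2.65-, 2.49- and 1.52-fold lower. The Flt3 value rests on single libraries, since its log2 fold change was -3.05 without JMJD1B-/- replicate 1 and -0.64 without replicate 2. By contrast, the summed level of the 38 listed erythroid effector genes was 1432 to 2022 RPKM in WT and 3323 to 4687 RPKM in JMJD1B-/- HSPCs, while the summed level of the 9 regulators was 384 to 405 RPKM in WT and 416 to 578 RPKM in JMJD1B-/- HSPCs. The effector sum, and the counts over these 38, take both copies of each globin pair, which can share reads. Hba-a1, Hba-a2, Hbb-b1 and Hbb-b2 had 42.6, 42.3, 51.6 and 53.0 RPKM in WT replicate 1. In JMJD1B-/- replicate 2 they had 371, 368, 437 and 449 RPKM.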

How the data were processed

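Polyadenylated RNA of HSPCs was measured in 2 WT and 2 JMJD1B-/- libraries. Libraries were made with the TruSeq V2 kit from RNA of the RNeasy micro kit. The authors deposited 1 table of RPKM. The submitters' processing notes name Novoalign, TopHat2 and mm9, without roles. No header or protocol states an added constant, but the lowest deposited value is exactly 1, so RPKM was taken, from the values, as the deposited value minus 1. Of 12024 entries, 84 shared 42 names and were averaged. Every listed gene reaches 1 RPKM in some library. Counts were not given. Library totals and transcript lengths under which RPKM returns whole numbers of aligned bases were found for 92.3% of entries, at a read length of 51 bases. A number counted as whole within the rounding of the deposited digits, and a length was kept where fewer than 0.02 lengths were expected to pass by chance. Reads are those bases divided by the read length. Counting error is 1 over the square root of reads, and covers counting alone. Lengths of Zfpm1 and Bcl11a were not resolved.

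The filter required a mean of 0.5 RPKM over the 4 libraries. Genotypes were compared by limma 3.58.1 (R 4.3.3, eBayes with a trend, genotype as the sole term, two-sided) after conversion to log2(RPKM + 0.1), with Benjamini-Hochberg adjustment over 11863 genes. Fold changes on this scale understate changes of low genes. Tested on simulated data for JMJD1B-/- against WT with 11817 genes, the fit called 94.5% of 200 genes changed by 4-fold at the adjusted threshold. The simulation gave every gene the same length and the same dispersion, which were not fitted to these replicates. Its share is therefore no measure of power in the real data, where 5 genes passed. Cd200r3 and Cebpa, 15.7- and 7.62-fold lower, did not pass there (adjusted p = 0.0714 and 0.0768, limma). Scripts ran in Python 3.11.15 with pandas 2.3.3, numpy 2.4.6 and matplotlib 3.10.9. The members, the 13 lists beside them, the motifs and the named genes were chosen with earlier results of these data known. Named genes were the 9 members, of each other list the 2 of highest mean RPKM and up to 3 of lowest p among those at an unadjusted p under 0.05 without overlap, Kdm3b, Xist, and the 3 listed genes nearest to Klf1, Gata1 and Epor. Genes outside that rule (the globin genes, Fli1, Sfpi1, Hbb-bh1, Camp, S100a8, S100a9, Vpreb3, Ly6a and Procr) were named after their values were seen. The table uses older symbols for some genes, such as Sfpi1. Alternatives were pseudocounts of 1 and 0.01, no filter or one at 1 RPKM, scaling by median ratios or by quantiles, limma without a trend, a gene-by-gene test, a replicate block, summed entries and each library left out. Genes of the lists that the table does not hold, and the ChIP-seq samples, were not analysed here.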

Additional observations from a re-analysis of the deposited data

How the results depend on the processing

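Leaving out 1 library moved most counts over all genes and left the direction of 7 of the 9 regulators in place. Without single libraries, 190 to 1777 genes were called lower, 127 to 1367 higher and 1 to 989 at the adjusted threshold, and 2 to 7 regulators at the unadjusted one. Of the regulators, 4 passed the adjusted threshold without JMJD1B-/- replicate 1, 1 without JMJD1B-/- replicate 2 and 0 without either WT library, in limma fits in which the lone library was assumed to vary like the other pair. The count of 5 genes at the adjusted threshold became 18 with a pseudocount of 1, 3 with a pseudocount of 0.01 or with a mean RPKM of at least 1, 1 under median-ratio scaling or quantile normalization, and 0 in limma without a trend or in the gene-by-gene test, where 768 and 512 genes were lower and 346 and 348 higher at the unadjusted threshold. The gene-by-gene test called 0 of the 9 regulators at the unadjusted threshold, and 28 erythroid effector genes called higher became 4. In that test 4 megakaryocyte, 4 basophil, eosinophil and mast cell, 3 granulocyte, 0 monocyte-macrophage and 1 of the stem and progenitor markers were called lower. The cause of these differences was not tested.

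With a replicate block, 256 genes passed the adjusted threshold, and of 11863 tested 571 were higher and 914 lower at the unadjusted one. The 4 regulators that passed the unadjusted threshold were Klf1, Gfi1b, Gata1 and Epor. Of these, 2, Klf1 and Gfi1b, passed the adjusted one. The labels tie same-numbered libraries by nothing but the number. Their deviations correlated at -0.05 over all genes, although Prg2 followed the number.

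Under quantile normalization Zfpm1 stood at -0.023. Without single libraries the log2 fold change passed 0 for Zfpm1 (-0.028 to 0.15) and Ldb1 (-0.27 to 0.47) among the regulators. Among other named genes it did so for Lmo2 (-0.084 to 0.34), Chd4 (-0.23 to 0.049), Mafg (-0.20 to 0.053), Myb (-0.45 to 0.17), Stat5a (-0.0027 to 0.39), Prg2 (-1.32 to 1.13), Ccr2 (-2.46 to 0.034), Il7r (-0.086 to 2.45) and Kit (-0.32 to 0.52). None of these was called in all 4 libraries. The regulators' median log2 fold change lay between 0.16 and 0.52. Depth limits JMJD1B-/- replicate 1 most, where 3 reads per kilobase are worth 0.491 RPKM, under every regulator's level.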
